A study of Rattus norvegicus with 20 samples.

Results

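Platelet genes were followed in the blood of rats that were susceptible or resistant to the liver injury caused by acetaminophen (APAP). The group was named by 10 gene symbols (Pf4, Ppbp, Gp9, Gp6, Itga2b, Itgb3, Treml1, Tubb1, Selp and Clu), and it took every probe set, a set of short oligonucleotides on the array that gives 1 signal, whose platform annotation holds exactly 1 of these symbols. Of the 10 genes, 9 were found, on 11 of 31042 probe sets. Selp and Clu had 2 probe sets each, and Gp6, the platelet receptor for collagen, was matched by none. Where a gene had several, the one with the highest mean log2 signal is called its main probe set.

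Blood of male Wistar rats was measured on 20 Affymetrix Rat Genome 230 2.0 arrays, 5 in each of 4 groups. They were susceptible rats after APAP (SA), susceptible rats before it (S), resistant rats after APAP (RA) and resistant rats before it (R). All of these rats received 1 oral dose of 1200 mg/kg APAP after a fast of 12 h, and the postdose blood was drawn at 24 h. Susceptible rats were those with the highest serum alanine transaminase after dosing and resistant rats those with the lowest, so that the sub-groups were defined after the dose also for the predose samples. Predose blood was taken 1 week before dosing from the retro-orbital plexus. For the postdose blood, the sample labels name the same site and the study's methods name the inferior vena cava. No array held blood of vehicle-treated rats, so that APAP, fasting and the day of bleeding cannot be told apart in any postdose difference. The same holds for the earlier bleeding of the same rats and, if the methods give the site rightly, for the site of bleeding. Blood was collected in EDTA under chloral hydrate, red blood cells were lysed, and RNA was taken from the remaining cells, which leaves platelets beside the white blood cells. A level is given as a multiple of the array's median signal, and a difference between groups on the log2 scale.

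Platelets are cell fragments without a nucleus that megakaryocytes of the bone marrow release into the blood. They carry RNA made in the megakaryocyte, adhere to exposed vessel walls through surface glycoproteins, and on activation empty granules that hold chemokines, clotting factors and adhesion proteins. Transcription factors of the GATA, ETS and NF-E2 families direct the genes of the megakaryocyte lineage.

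The RefSeq promoters of Itga2b, Gp9, Treml1 and Tubb1, 250 bases before the gene start, are shown. These 4 genes varied together from array to array, as described further on, and so did Ppbp, whose promoter is not printed. Capitals mark the motifs searched on both strands, which were GATAA (GATA factors; TTATC on the other strand), AGGAA (ETS factors; TTCCT) and TGCTGA (NF-E2 and MAF; TCAGCA).
Itga2b, chr10:87925834-87926083, minus strand, GRCr8: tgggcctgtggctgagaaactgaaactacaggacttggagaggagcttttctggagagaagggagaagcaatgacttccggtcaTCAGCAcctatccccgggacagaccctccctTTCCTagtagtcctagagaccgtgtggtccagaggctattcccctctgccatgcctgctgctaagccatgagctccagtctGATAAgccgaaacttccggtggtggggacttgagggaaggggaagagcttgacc
Gp9, chr4:121792592-121792841, plus strand, GRCr8: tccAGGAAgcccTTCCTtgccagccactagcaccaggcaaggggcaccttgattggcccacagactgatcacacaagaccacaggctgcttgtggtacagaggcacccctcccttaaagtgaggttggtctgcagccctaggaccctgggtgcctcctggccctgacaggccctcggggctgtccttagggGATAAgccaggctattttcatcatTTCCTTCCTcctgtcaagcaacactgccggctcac
Treml1, chr9:20139934-20140183, minus strand, GRCr8: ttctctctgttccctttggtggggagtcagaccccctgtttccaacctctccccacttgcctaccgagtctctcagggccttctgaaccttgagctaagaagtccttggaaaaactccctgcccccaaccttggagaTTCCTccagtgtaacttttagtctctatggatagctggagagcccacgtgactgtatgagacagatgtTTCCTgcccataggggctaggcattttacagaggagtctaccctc
Tubb1, chr3:183665939-183666188, plus strand, GRCr8: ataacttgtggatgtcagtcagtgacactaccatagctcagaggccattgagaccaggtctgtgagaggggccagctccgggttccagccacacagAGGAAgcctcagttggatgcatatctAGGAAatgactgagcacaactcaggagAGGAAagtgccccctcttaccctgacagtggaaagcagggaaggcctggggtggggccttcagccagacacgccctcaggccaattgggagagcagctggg
The table of promoters held 5 of the 9 genes, these 4 and Ppbp. GATAA lay in 2 of the 5 windows, those of Gp9 and Itga2b, and in 23.5% of all 33469 windows of this length. AGGAA lay in 5 of 5, against 61.0% of all windows, and TGCTGA in 1 of 5, that of Itga2b, against 15.1%. In Gp9, 2 of the TTCCT matches share a base. The matches are a description of these letters only.

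The deposited array medians were 187 to 223. As a measure of RNA integrity, the 3' end of the actin control exceeded its 5' end on the log2 scale by 0.79 ± 0.10 in SA, 0.87 ± 0.05 in S, 0.76 ± 0.10 in RA and 0.80 ± 0.03 in R (SD, n = 5 each). Markers of neutrophils and natural killer cells were higher after dosing, with 4 of 9 and 6 of 6 called higher in susceptible and 3 of 9 and 6 of 6 in resistant rats. Of all probe sets, 3.86% were called higher in susceptible and 2.51% in resistant rats. Not all neutrophil genes took part, and Camp had changes of -0.26 and -0.89 that did not pass. The summed level of 9 neutrophil markers was 845 to 1224 in SA against 498 to 668 in S, and 823 to 1023 in RA against 506 to 713 in R. That of 6 natural killer cell markers was 263 to 422 in SA against 158 to 215 in S, and 325 to 465 in RA against 151 to 256 in R. The sums of 8 T cell markers (408 to 532 in SA against 468 to 520.4 in S) and of 6 monocyte markers (404 to 550.0 in SA against 452 to 484 in S) overlapped, as they did in resistant rats. Single markers did move, with 1 of 8 T cell and 2 of 6 monocyte markers called lower in susceptible rats (2.80% of all probe sets). In resistant rats 1 of 8 and 0 of 6 were called lower (2.60% of all). The median change of the monocyte markers was -0.43 in susceptible and -0.32 in resistant rats. The sum of the 9 platelet main probe sets overlapped in all groups, at 1546 to 2166 in SA, 1325 to 1715 in S, 1262 to 1818 in RA and 1458 to 1668 in R. SA replicate 1 stood apart for the platelet genes. The mean of their standardized values was 2.20 on that array and -1.34 to 0.73 on the other 19, and the changes in susceptible rats are also given without it, and with quantile normalization, where these move them by over 1.5 times. Platelet RNA was readily detected, and 8 of the 9 main probe sets had a level of at least 23.0 on every array. That of Selp was 1.27 to 3.34.

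Pf4 and Ppbp encode chemokines stored in platelet alpha granules. Pf4, platelet factor 4, had levels of 606, 477, 437, 564 and 502 in SA, against 455, 416, 494, 541 and 409 in S. In resistant rats it had 594, 407, 345, 442 and 515 in RA, against 520.1, 460.1, 431, 451 and 439.8 in R. The groups overlapped in both sub-groups. The postdose change was 0.16 in susceptible rats (95% interval -0.13 to 0.45, limma adjusted p = 0.603) and -0.02 in resistant rats (-0.31 to 0.27, adjusted p = 0.964). In susceptible rats it was 0.10 without SA replicate 1 and 0.02 with quantile normalization. These and all later adjusted p values come from limma, with Benjamini-Hochberg adjustment over all probe sets tested. In this RNA of mixed blood cells, a change in the number of platelets and a change in RNA per platelet cannot be told apart.

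Ppbp, pro-platelet basic protein, gives rise to a neutrophil attractant by cleavage. It had 64.9, 36.7, 30.2, 40.6 and 39.9 in SA, against 45.9, 29.2, 52.8, 54.0 and 23.0 in S. In RA it had 40.0, 36.3, 34.2, 28.5 and 39.9, against 35.7, 41.6, 33.6, 37.4 and 47.6 in R. The S animals alone ranged over more than the 10 resistant values together, and the changes of 0.08 (adjusted p = 0.902) and -0.13 (adjusted p = 0.850) lay within that spread. The change in susceptible rats turned to -0.08 without SA replicate 1 and to -0.04 with quantile normalization.

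**Figure D1:**
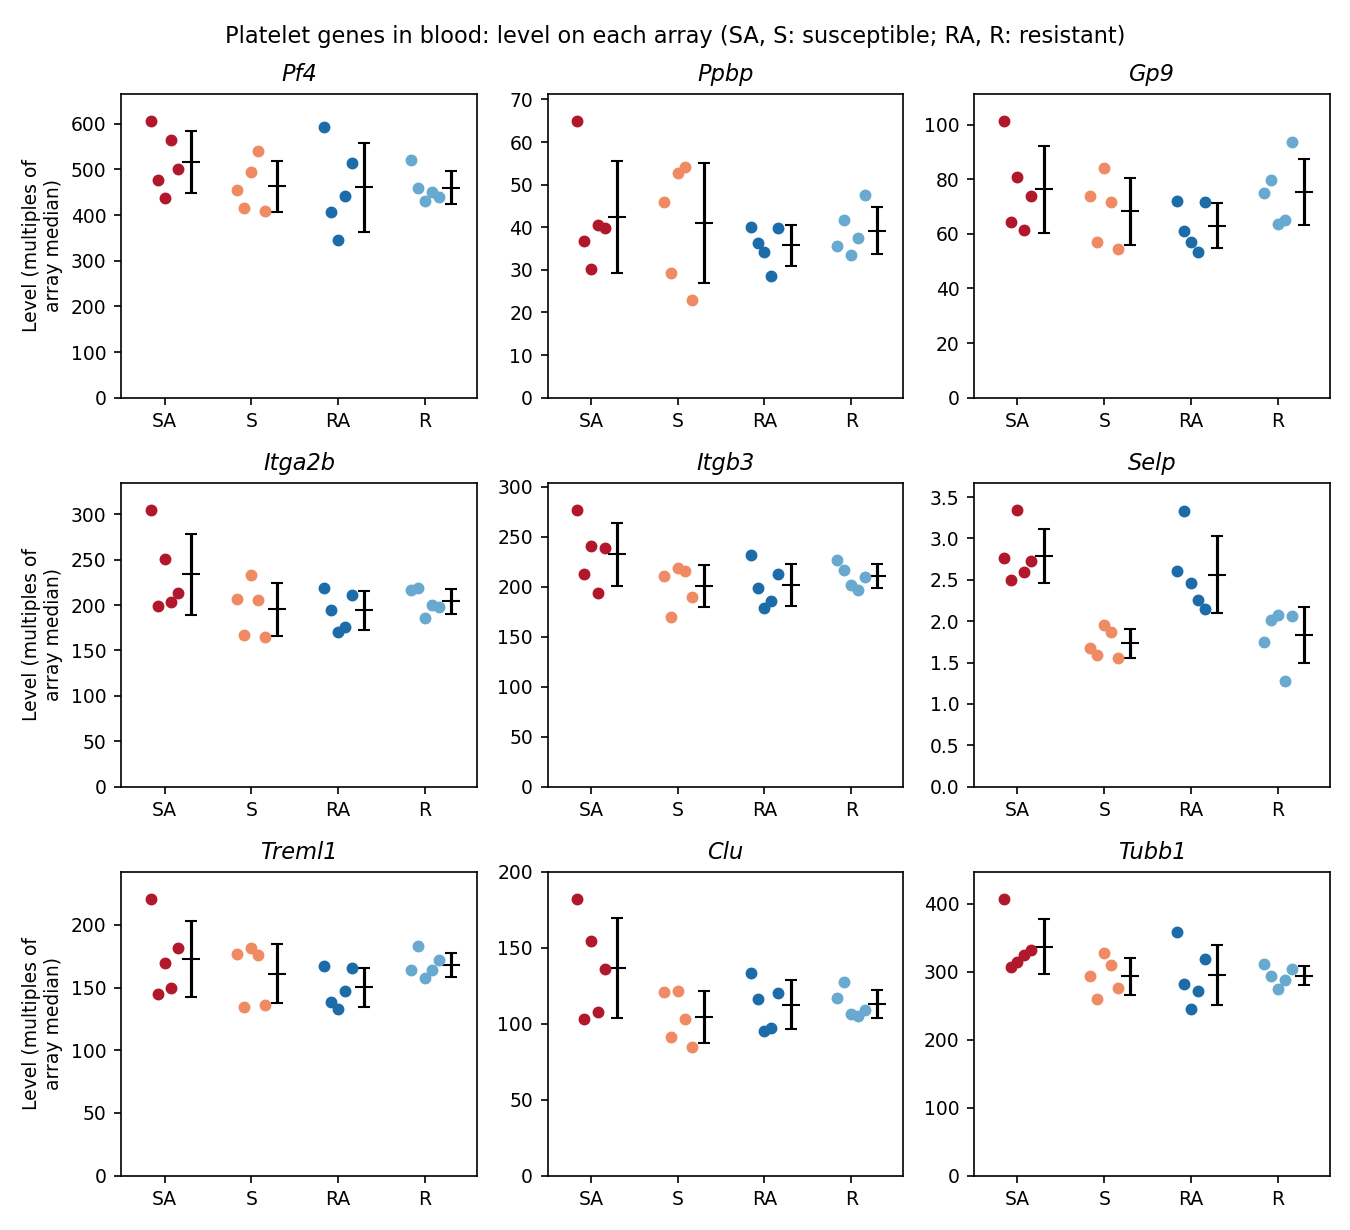
Level of the main probe set of each of the 9 platelet genes (vertical axis, multiples of the array median, from 0) in the 4 groups (SA, susceptible postdose; S, susceptible predose; RA, resistant postdose; R, resistant predose). Points are the 5 arrays of a group and bars the mean ± SD. Only Selp has postdose values that all lie above the predose values of the same sub-group, 2.50 to 3.34 against 1.56 to 1.95 in susceptible and 2.15 to 3.33 against 1.27 to 2.08 in resistant rats.

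Gp9, Itga2b and Itgb3 encode adhesion receptors. Gp9 is glycoprotein IX, a part of the complex through which platelets bind von Willebrand factor. Its levels were 101, 64.5, 81.0, 61.4 and 73.9 in SA, against 74.0, 57.0, 84.1, 71.6 and 54.5 in S. They were 71.9, 61.1, 57.1, 53.5 and 71.6 in RA, against 74.8, 79.8, 63.7, 65.2 and 93.5 in R. The change was 0.16 in susceptible rats (-0.18 to 0.50, adjusted p = 0.662) and -0.25 in resistant rats (-0.59 to 0.08, adjusted p = 0.471). In susceptible rats it was 0.05 without SA replicate 1 and -0.01 with quantile normalization. The change in susceptible minus that in resistant rats, 0.41, was the largest of the 9 genes and did not pass (-0.06 to 0.89, unadjusted p = 0.0846, adjusted p = 0.765).

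Itga2b and Itgb3 encode the alpha IIb and beta 3 chains of the fibrinogen receptor, by which platelets bind each other. The alpha chain is a hallmark of the megakaryocyte lineage, while the beta chain is also made by other cells. Itga2b had 305, 199, 251, 203 and 213 in SA, against 207, 167, 233, 206 and 165 in S. It had 219, 195, 171, 175 and 211 in RA, against 217, 219, 186, 199.9 and 198 in R. The change of 0.25 in susceptible rats (-0.02 to 0.53) did not pass (limma adjusted p = 0.313), and that in resistant rats was -0.07 (-0.35 to 0.20, adjusted p = 0.848). In susceptible rats it was 0.15 without SA replicate 1 and 0.08 with quantile normalization.

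Itgb3 followed closely. It had 277, 213, 241, 194 and 239 in SA, against 211, 169, 219, 216 and 189.9 in S. It had 231, 199, 179, 186 and 212 in RA, against 226, 217, 202, 197 and 209.7 in R. For both chains SA replicate 1 was the highest of all 20 arrays. The changes in Itgb3 were 0.21 (-0.02 to 0.44, adjusted p = 0.328) and -0.07 (-0.30 to 0.16, adjusted p = 0.835). With quantile normalization the change in susceptible rats was 0.05.

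Selp encodes P-selectin, a membrane protein of platelet alpha granules and of endothelial storage granules, which reaches the surface on activation and binds leukocytes. Its main probe set, 1391946_at, was the only one of the 11 that passed in any comparison. It had 2.76, 2.50, 3.34, 2.59 and 2.73 in SA, against 1.68, 1.60, 1.95, 1.87 and 1.56 in S. Every SA value lay above every S value. The group means were 2.79 ± 0.328 in SA and 1.73 ± 0.173 in S (SD, n = 5 each). The change was 0.69 (SE 0.15, 95% interval 0.38 to 0.99, adjusted p = 0.00793), a rise of 1.61-fold (1.30 to 1.99). Without SA replicate 1 it was 0.69 with an adjusted p of 0.0200.

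In resistant rats Selp had 2.61, 3.33, 2.47, 2.25 and 2.15 in RA, against 1.75, 2.01, 2.08, 1.27 and 2.06 in R. Again no RA value lay below an R value. The means were 2.56 ± 0.464 in RA and 1.83 ± 0.342 in R, and the change of 0.49 (0.18 to 0.80, 1.40-fold) had an unadjusted p of 0.00395 and an adjusted p of 0.0669, so that it was not called. It passed with quantile normalization (0.50, adjusted p = 0.0472) and with 1 probe set per gene in the adjustment (adjusted p = 0.0479). The difference between the changes was 0.20 (-0.24 to 0.64, adjusted p = 0.914), so that a difference between the sub-groups in the Selp response was not shown.

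The second Selp probe set, 1369374_at, had levels of 0.0133 to 0.422 over the 20 arrays, and 9 of them were at or below 0.279, the highest signal of the bacterial trp controls. Its changes were 0.57 (-0.92 to 2.06, adjusted p = 0.738) in susceptible and 0.50 (-0.996 to 1.99, adjusted p = 0.807) in resistant rats, with intervals that hold both no change and the changes of the main probe set. Since P-selectin is made by endothelium too, 7 endothelial markers (Tek, Tie1, Kdr, Flt1, Emcn, Esam and Egfl7) were set beside it. Their summed level was 7.58 to 10.03 in SA and 8.62 to 11.3 in S, and 8.04 to 10.5 in RA and 9.28 to 10.3 in R. None of the 7 was called in either change by limma, and 1 of them, Kdr, had an unadjusted p under 0.05, being lower in SA (-0.49, unadjusted p = 0.00755, adjusted p = 0.0851). The neutrophil and natural killer cell sums given above rose along with Selp in both sub-groups. The part of endothelium, neutrophils and natural killer cells in the Selp change was not tested.

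Treml1 and Clu complete the granule genes. Treml1 encodes a receptor of the alpha granule membrane that is restricted to platelets and megakaryocytes. It had 221, 145, 169.5, 149 and 181 in SA, against 177, 135, 182, 176 and 136 in S. It had 167, 139, 133, 147 and 166 in RA, against 164, 183, 158, 164 and 172 in R. Its changes of 0.10 (-0.17 to 0.37, adjusted p = 0.743) and -0.17 (-0.43 to 0.10, adjusted p = 0.579) did not pass, nor did the test of their difference (0.27, adjusted p = 0.825). Without SA replicate 1 the change in susceptible rats was 0.01, and with quantile normalization it was -0.08, beside -0.18 in resistant rats.

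Clu encodes clusterin, a secreted chaperone that platelets store and that liver and other tissues also make. Its main probe set, 1367784_a_at, had 182, 103, 155, 108 and 136 in SA, against 121, 91.2, 122, 103 and 84.8 in S. It had 133, 116, 95.5, 97.5 and 120.0 in RA, against 117, 127, 107, 105 and 109 in R. In susceptible rats 3 of 5 SA values lay above all S values. The change was 0.37 (0.04 to 0.70, unadjusted p = 0.0305, adjusted p = 0.199), and -0.01 in resistant rats (adjusted p = 0.981). The change in susceptible rats was 0.26 without SA replicate 1 (adjusted p = 0.425) and 0.21 with quantile normalization (adjusted p = 0.367). The summed level of 10 liver markers was 3.77 to 28.8 in SA against 1.94 to 3.49 in S, and 2.40 to 4.41 in RA against 2.49 to 3.68 in R, and its part in the Clu values was not tested. The second Clu probe set, 1388246_at, lay between 0.167 and 1.90 and changed by 0.60 (adjusted p = 0.475) and 0.43 (adjusted p = 0.672), neither of which passed.

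Tubb1 encodes the beta tubulin of the ring of microtubules that keeps platelets flat. It had 407, 307, 314, 325 and 333 in SA, against 294, 259, 327, 310.3 and 277 in S. It had 359, 283, 245, 272 and 318 in RA, against 312, 293, 274, 289 and 304 in R. SA replicate 1 stood above the other 4 of its group, which lay within 307 to 333. The changes were 0.20 (-0.03 to 0.43, adjusted p = 0.362) and -0.01 (-0.24 to 0.23, adjusted p = 0.989). In susceptible rats the change was 0.13 without SA replicate 1 and 0.10 with quantile normalization.

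**Figure D2:**
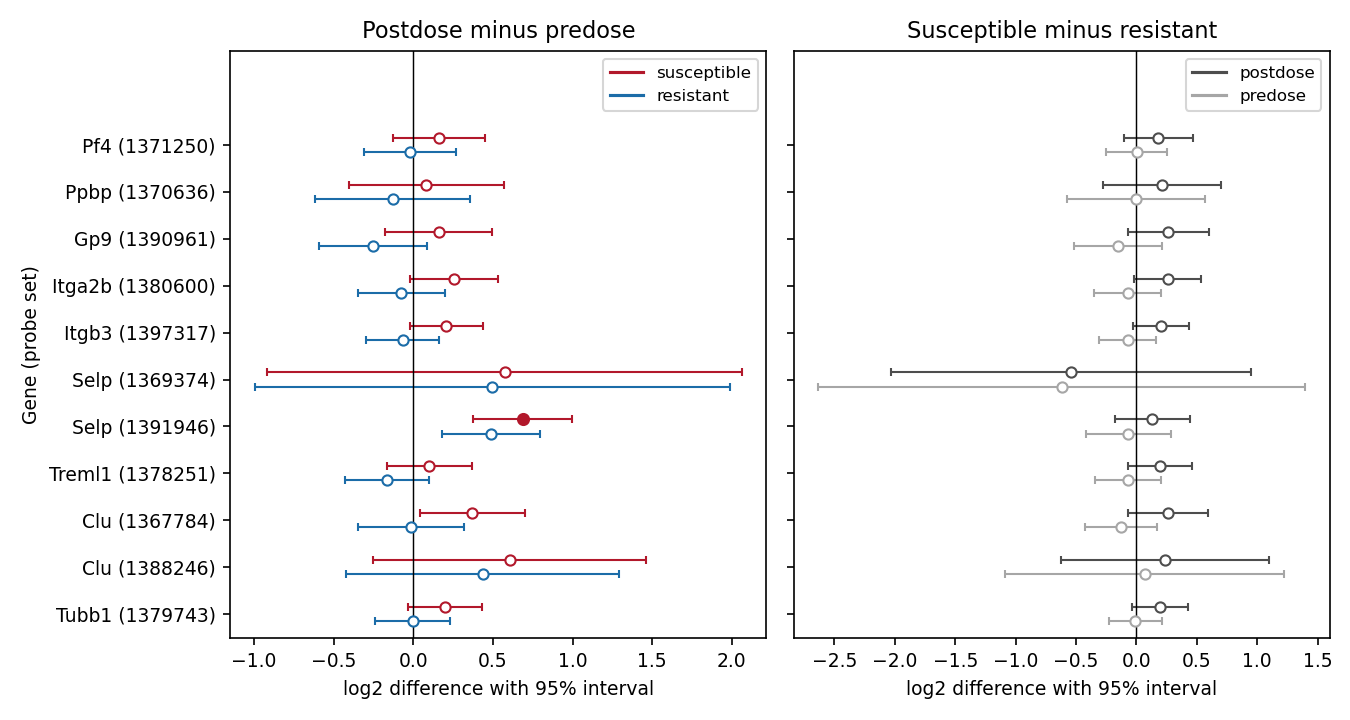
Log2 differences (horizontal axis) with 95% intervals from limma for the 11 platelet probe sets. Left, postdose minus predose in susceptible and in resistant rats. Right, susceptible minus resistant after and before dosing. The filled point marks the only difference past an adjusted p of 0.05, Selp 1391946_at in susceptible rats at 0.69, and the widest intervals belong to Selp 1369374_at and Clu 1388246_at, which have low signal.

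Over the 11 platelet probe sets, 1 was called higher and 0 lower in susceptible rats after dosing, where 3.86% of all 30747 probe sets tested were called higher and 2.80% lower. In resistant rats 0 were called in either direction, against 2.51% higher and 2.60% lower of all. At an unadjusted p under 0.05 there were 2 of 11 in susceptible rats (19.0% of all) and 1 of 11 in resistant rats (17.1% of all). The groups did not overlap for 1 of 11, Selp 1391946_at, higher in SA than in S (3.93% of all) and higher in RA than in R (3.24% of all). With 11 probe sets, 1 call is near what these shares of all probe sets give. None was free of overlap and lower in SA (2.91% of all) or in RA (3.53% of all).

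In susceptible rats 11 of 11 differences lay above 0, where 51.3% of all probe sets did, but without SA replicate 1 it was 10 of 11 (51.0% of all) and with quantile normalization 8 of 11 (48.2% of all). In resistant rats 3 of 11 lay above 0, where 49.1% of all did. It was 4 of 11 with quantile normalization (49.5% of all) and 5 of 11 with values as deposited (50.9% of all). Without RA replicate 2 or 4 it was 5 of 11, and without RA replicate 3 it was 6 of 11 (49.8% of all). The median over the 9 main probe sets was 0.20 in susceptible and -0.07 in resistant rats, beside 0.01 and -0.01 over all probe sets. These 9 genes share much of their variation between arrays, as shown next, so that their common direction is not 9 separate observations. The median in susceptible rats was 0.13 without SA replicate 1 and 0.05 with quantile normalization.

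Between the sub-groups, no platelet probe set was called. In the difference between the changes, the median over the 9 main probe sets was 0.27 (0.02 over all probe sets), 11 of 11 lay above 0 (52.2% of all), or 10 of 11 without SA replicate 1, and limma called 0 of 11 and 0 of all 30747, with 0 of 11 also at an unadjusted p under 0.05 (6.90% of all). After dosing, susceptible minus resistant rats had a median of 0.20, and 0 of 11 were called, against 0.124% of all called higher and 0.0195% lower. The difference lay above 0 for 10 of 11 (49.6% of all), and 0 of 11 had an unadjusted p under 0.05 (9.18% of all). The Itga2b levels give the nearest case, with 199 to 305 in SA against 171 to 219 in RA (difference 0.26, -0.02 to 0.53, unadjusted p = 0.0660, adjusted p = 0.580). No platelet probe set was free of overlap between SA and RA, which 1.56% of all probe sets were with SA above RA and 0.673% with SA below it. With quantile normalization the median of 0.27 was 0.14 and that of 0.20 was 0.10, and without SA replicate 1 they were 0.20 and 0.13.

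Before dosing, no platelet gene was called between the rats that later proved susceptible and those that proved resistant. The differences of the 9 main probe sets, S minus R, lay between -0.15 and 0.00, with a median of -0.07 (-0.02 over all probe sets). None of the 11 was called by limma (0% of all higher, 0.00329% lower), 2 of 11 lay above 0 (45.5% of all), and 0 of 11 had an unadjusted p under 0.05 (3.74% of all). None had S values all above (0.243% of all) or all below (0.286% of all) those of R. The intervals bound what could have been missed. That of Pf4 was -0.25 to 0.25, that of Tubb1 -0.23 to 0.21 and that of Itga2b -0.35 to 0.21, while that of Ppbp, -0.57 to 0.57, was the widest among the main probe sets.

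**Figure D3:**
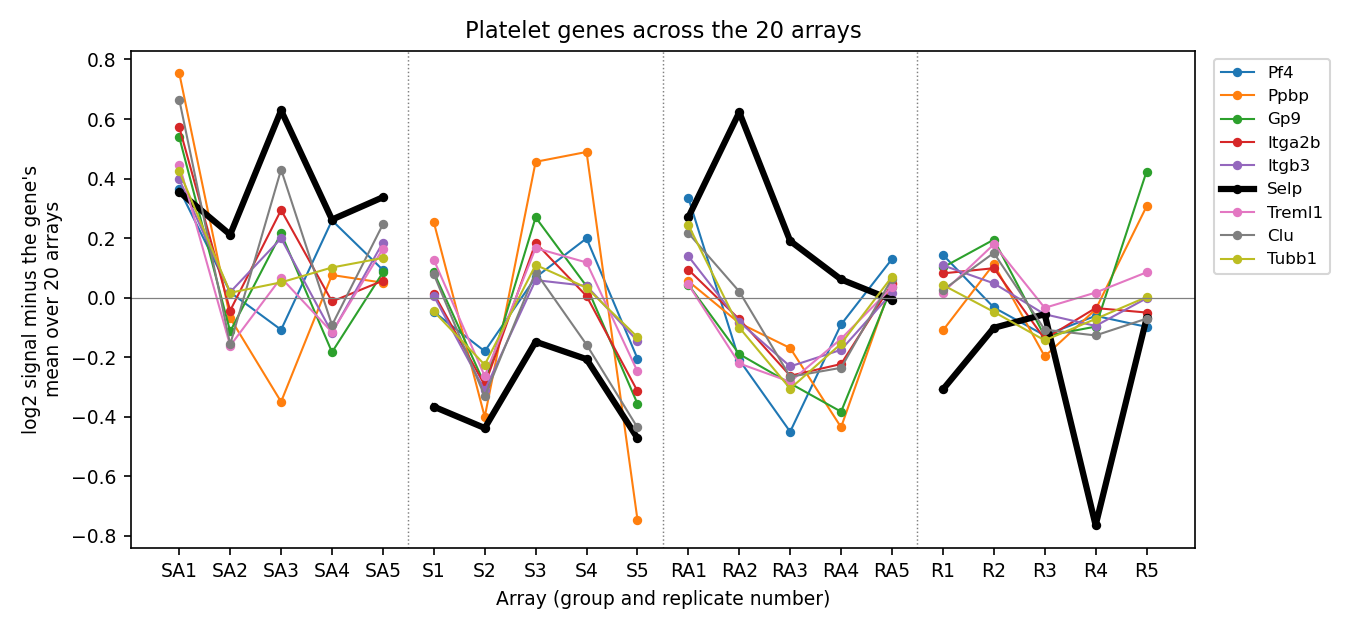
Log2 signal of the 9 main probe sets on each array minus the mean of that gene over the 20 arrays (vertical axis), by group and replicate (horizontal axis). The points are joined to help the eye and replicates have no order. Except for Selp (black), the genes go up and down together from array to array, high on SA1 and low on S2 and S5, and Selp is above its mean on 9 of the 10 postdose arrays.

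Within the groups, the platelet genes other than Selp were high or low together from array to array. Deviations from the 4 group means were correlated over the 20 arrays for each of the 36 pairs of main probe sets, with 100000 permutations within groups and Benjamini-Hochberg adjustment over the 36. The arrays came from 10 rats, each sampled before and after dosing, and share the same scaling. Among the 28 pairs without Selp, Pearson's r was 0.48 to 0.94 with a median of 0.80, Spearman's rho was 0.51 to 0.95, and 27 passed by either measure. The exception was Pf4 with Clu (r = 0.48, adjusted permutation p = 0.0700). Without SA replicate 1 the r of these 28 pairs was 0.40 to 0.92, and without the 2 arrays farthest from the median 0.35 to 0.94.

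The closest pair was Itga2b with Clu, with r = 0.94, rho = 0.95 and, without the 2 farthest arrays, r = 0.91 (permutation p = 1e-05, the smallest that 100000 permutations can give, adjusted p = 0.00012). The chains of the fibrinogen receptor, Itga2b and Itgb3, had r = 0.89 and rho = 0.88 (0.86 without the 2 farthest, adjusted permutation p = 0.00012). Pf4 was closest to Tubb1, with r = 0.89 and rho = 0.85 (0.80 without the 2 farthest, adjusted permutation p = 0.00024). Gp9, Itga2b, Treml1 and Tubb1, whose promoters are printed above, had r between 0.77 and 0.89 with each other. Selp differed from these in its pattern. Its 8 pairs had r of -0.09 to 0.39, 0 of them passed by r, and 1 passed by rho, that with Clu (rho = 0.49, adjusted permutation p = 0.0447). The signal of Selp was also much nearer to the array median, and whether its weak correlations come from that was not tested.

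**Figure D4:**
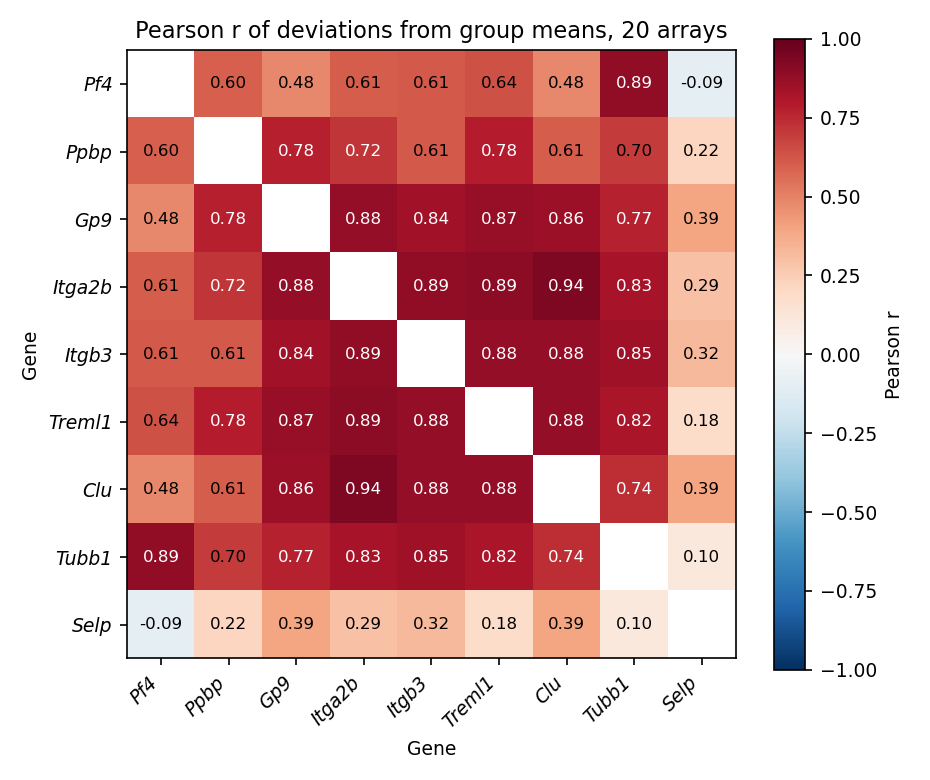
Pearson's r between the deviations of 2 genes from their 4 group means over 20 arrays, for the 9 main probe sets (both axes), with the value in each cell. The 8 genes other than Selp form a block of 0.48 to 0.94, and the row of Selp holds -0.09 to 0.39.

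The genes whose profile over the 20 arrays was most like the mean of the standardized platelet genes were Tpm4 (r = 0.96), Rac1 (0.96), Adk (0.95), Pdlim1 (0.95), Rgs10, Tal1, Fhl1, Tsc22d1, Cd9 and Myl9 (0.94 each). They were taken from 14129 genes, of which 133 had an r over 0.8 and whose median r was 0.05. Without SA replicate 1 the r of these 10 was 0.90 to 0.94. Tpm4 encodes a tropomyosin of the actin cytoskeleton, Rac1 a small GTPase that remodels actin, and Cd9 a tetraspanin of the platelet surface. None of the 10 was called in either postdose change. Cd9, the nearest to a call, had 264, 182, 207, 199.6 and 213 in SA, against 182, 146, 190.0, 174 and 137 in S, and changed by 0.36 (adjusted p = 0.0958).

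Further genes of platelets and megakaryocytes were taken from 5 lists with 68 genes, of which 57 had a probe set with their symbol alone and all 57 were tested. In susceptible rats 6 of the 57 were called higher and 1 lower after dosing (3.86% and 2.80% of all probe sets), with a median change of 0.24 (0.01 over all). In resistant rats 1 was called higher and 3 lower (2.51% and 2.60% of all), with a median of -0.01 (-0.01 over all). The difference between the changes had a median of 0.28 (0.02 over all) and lay above 0 for 47 of 57 (52.2% of all). With quantile normalization these were 0.15 and 41 of 57, and without SA replicate 1 they were 0.20 and 45 of 57. Part of that difference was present before dosing. There, S minus R had a median of -0.09 (-0.02 over all) and lay above 0 for 13 of 57 (45.5% of all). After dosing, SA minus RA had a median of 0.21 (-0.003 over all) and lay above 0 for 46 of 57 (49.6% of all). Several of these genes followed the platelet genes from array to array, so that the 57 are not separate observations. Limma called 0 of the 57 in the difference between the changes, after dosing or before dosing. The count of 6 rested on single arrays and became 2 without SA replicate 1, 3 or 5 or S replicate 2 or 5, 3 without S replicate 4, and 10 without SA replicate 4. In resistant rats the 3 called lower became 1 without RA replicate 2 or 4 or R replicate 2, 3, 4 or 5, and the 1 called higher became 0 without RA replicate 1 or 2 or R replicate 3.

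Among receptors, 0 of 7 adhesion genes and 0 of 8 agonist receptor genes were called. Clec1b, the platelet receptor for podoplanin, had 341, 250.4, 280.2, 257 and 273 in SA, against 241, 227, 251, 239 and 215 in S, a change of 0.25 that did not pass, and 0.09 in resistant rats. P2ry12, the ADP receptor targeted by antiplatelet drugs, had changes of 0.28 and 0.06, and F2rl2, a thrombin receptor, of 0.41 and 0.18, none of them called.

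Of 11 genes in the list named for granule proteins, 2 were called higher in susceptible rats, where 3.86% of all probe sets were. The name of the list does not show that each product is stored in granules. Nrgn, which encodes a calmodulin-binding protein found in platelets, had 149, 76.4, 111, 74.5 and 128 in SA, against 60.0, 55.7, 70.1, 54.8 and 39.8 in S. These values did not overlap, and the change was 0.91 (adjusted p = 0.0444). In resistant rats they did, with 114, 85.4, 56.5, 49.1 and 115 in RA against 68.8, 84.8, 61.4, 50.0 and 82.5 in R (0.21, adjusted p = 0.764). Timp3, an inhibitor of metalloproteinases, changed by 0.52 in susceptible (adjusted p = 0.0384) and 0.04 in resistant rats (adjusted p = 0.931). Without SA replicate 1 neither passed, with adjusted p of 0.122 for Nrgn and 0.106 for Timp3. Srgn, the proteoglycan that packs granule cargo, and F5, coagulation factor V, had the highest signals of the list and changes of 0.27 and 0.38 in susceptible rats, which did not pass.

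Of 21 signalling and cytoskeleton genes, 3 were called higher in susceptible rats (3.86% of all probe sets) and 1 of these also in resistant rats (2.51% of all). Orai1, the pore of the store-operated calcium channel, had 35.0, 20.5, 33.3, 21.6 and 23.1 in SA, against 17.5, 16.7, 15.6, 14.2 and 14.4 in S. All SA values were the higher ones, and the change was 0.74 (adjusted p = 0.00389, and 0.0116 without SA replicate 1). In resistant rats it had 23.5, 20.7, 18.6, 17.6 and 22.3 in RA, against 18.0, 17.9, 17.0, 16.7 and 17.6 in R (0.23, adjusted p = 0.463). Nbeal2, needed for alpha granules to form, had 14.97, 10.3, 15.6, 13.5 and 15.3 in SA, against 9.72, 10.6, 8.13, 8.88 and 8.29 in S, with 1 SA value inside the range of S, and rose by 0.60 (adjusted p = 0.0131). In RA it had 15.7, 16.01, 13.2, 10.4 and 14.6, against 10.1, 10.3, 8.41, 9.34 and 8.21 in R, a rise of 0.58 (adjusted p = 0.0197). Prkar2b, a regulatory subunit of protein kinase A, rose by 0.54 in susceptible rats (adjusted p = 0.0381, and 0.108 without SA replicate 1) and changed by 0.14 in resistant rats (adjusted p = 0.716). With quantile normalization its change in susceptible rats was 0.39 and did not pass (adjusted p = 0.109). The calls of Orai1 and Nbeal2 were lost with only the 10 arrays compared. The adjusted p from limma was then 0.0627 for Orai1 in susceptible rats. For Nbeal2 it was 0.0624 in susceptible and 0.0656 in resistant rats. Without 1 array, that of Nbeal2 in resistant rats was 0.00553 to 0.0603. Orai1 and Nbeal2 are also expressed by white blood cells, whose markers moved as given above, and the part of those cells in these values was not tested.

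Of 10 megakaryocyte differentiation factors, 1 was called higher and 1 lower in susceptible rats (3.86% and 2.80% of all probe sets), and 3 lower in resistant rats (2.60% of all). The list is short, so that a single call is a larger share of it than of all probe sets. Nfe2, the blood-specific subunit of NF-E2, had 145, 110.0, 171, 106 and 138 in SA, against 103, 83.5, 93.5, 91.4 and 98.1 in S, and rose by 0.49 (adjusted p = 0.0404, and 0.0994 without SA replicate 1). With quantile normalization the change in susceptible rats was 0.33 and did not pass (adjusted p = 0.117). In resistant rats the Nfe2 change was 0.07 (adjusted p = 0.875). The neutrophil sums given above also rose in susceptible rats, and the part of those cells in the Nfe2 values was not tested. Mef2c, a MADS-box factor that B cells and other white blood cells also express, had 16.4, 18.2, 17.3, 22.9 and 16.9 in SA, against 29.9, 34.3, 28.3, 28.9 and 30.7 in S. It had 20.3, 17.9, 19.2, 18.3 and 18.2 in RA, against 41.8, 34.6, 30.5, 23.1 and 26.9 in R. The groups were apart in both sub-groups, with changes of -0.74 (adjusted p = 0.00283) and -0.71 (adjusted p = 0.00423). The summed level of 4 B cell markers was 73.0 to 94.8 in SA against 90.7 to 120.4 in S, and 79.1 to 99.0 in RA against 96.9 to 143 in R, and its part in the Mef2c fall was not tested.

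Runx1, a core factor of blood cell development that many white blood cells express, fell by 0.47 in resistant rats (adjusted p = 0.0442), while the difference between SA and S was -0.37 (adjusted p = 0.104). Its levels were 25.5, 25.4, 23.0, 29.0 and 18.8 in SA against 31.4, 37.7, 26.2, 31.4 and 30.4 in S. In resistant rats they were 24.5, 24.9, 26.7, 18.0 and 22.3 in RA against 31.8, 31.8, 35.6, 30.9 and 29.8 in R. Meis1, a homeobox factor of stem cells and megakaryocytes, fell by 0.60 in resistant rats (adjusted p = 0.0374) and changed by -0.03 in susceptible rats (adjusted p = 0.954). Both calls in resistant rats were lost with only the 10 arrays compared, at an adjusted p of 0.0843 for Runx1 and 0.0954 for Meis1. They also depended on single arrays. Without 1 array the adjusted p was 0.0313 to 0.117 for Runx1 and 0.0232 to 0.102 for Meis1. The other factors did not pass, among them Tal1, whose profile was among the 10 most like the platelet genes, with changes of 0.34 in susceptible and -0.15 in resistant rats.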

How the data were processed

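The authors lysed the red blood cells, extracted RNA from the rest, kept RNA with a RIN above 7 and hybridized 1 array per sample. They deposited 1 linear intensity per probe set and array. The software behind these signals is not given in the sources used here, and the methods normalize each chip in ArrayTrack to a median intensity of 1000. That scaling was applied here to 31042 probe sets, without 57 control probe sets, before log2 was taken. A probe set had to reach 100 on 1 or more arrays of a fit, which 30747 did on 20 arrays and 30416 on the 10 predose arrays, among them all 11 of the platelet genes. Symbols are those of the platform annotation, which can be old. It gives 20826 probe sets 1 symbol, 436 several and 9780 none.

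Tests were made in limma 3.58.1 under R 4.3.3 (functions lmFit and eBayes), with a call at a Benjamini-Hochberg adjusted p under 0.05, after a trial on simulated data. All 20 arrays entered the fit of the changes, of their difference and of the postdose difference, and 10 arrays that of the predose difference. The platelet genes and all gene lists were chosen with earlier results of these data known. Named were all platelet genes, in each further list the genes that passed (at most 6) and the 2 of highest signal, and the 10 genes with the most similar profile. The arrays are of 10 rats at 2 times, but equal replicate numbers are not stated to be the same rat, so that arrays were treated as separate samples. The alternatives changed the normalization (quantile, or none beyond the deposited scale), the filter (absent, or on 5 arrays), the offset (32 added before log2), the probe sets (1 per gene), the model (replicate number as block, or the compared arrays alone), the test (the methods' t-test) and the arrays (each left out). The number of arrays limits the precision. Promoters are from RefSeq (GRCr8), and figures were drawn with matplotlib 3.10.9.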

Additional observations from a re-analysis of the deposited data

Results flagged for a closer look

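In the 11 platelet probe sets, 44 sets of 5 arrays were searched for a highest or lowest array far from the other 4, and 3 were found, where chance marks about 1 in 20. Tubb1 had a level of 406.9 in susceptible postdose replicate 1, against 306.6 to 332.5 on the other 4 arrays of that group. The Clu probe set 1388246_at had 0.1668 in resistant predose replicate 1, against 0.9304 to 1.192 on the others, and the Selp probe set 1369374_at had 0.01334 in susceptible predose replicate 4, against 0.1632 to 0.3928. The 2 low values lie below 0.279, the highest signal of the bacterial trp controls.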

How the results depend on the processing

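The call of Selp 1391946_at in susceptible rats was kept without any 1 of the 20 arrays (change 0.62 to 0.73, adjusted p 0.00332 to 0.0282), and the count of platelet probe sets called higher stayed at 1 except by the methods' t-test, unadjusted with a fold change of 2, which called 0. In resistant rats the count of 0 became 1 with quantile normalization and 1 with 1 probe set per gene. Without 1 array, the median over the main platelet probe sets was 0.13 to 0.24 in susceptible and -0.12 to -0.03 in resistant rats. Of 1497 values of platelet probe sets under the alternatives, 52 changed sign, none of them called. The counts over the 57 further genes moved more. In susceptible rats the 6 called higher were 3 with quantile normalization, 0 with only the 10 arrays compared, 0 by the methods' t-test with Benjamini-Hochberg adjustment and 0 by its unadjusted form with a fold change of 2, and 2 to 10 without 1 array. The 1 called lower was 4 with quantile normalization, 2 with values as deposited, 2 with 1 probe set per gene, 0 by the unadjusted t-test with a fold change of 2, and 1 to 2 without 1 array. In resistant rats the 1 called higher was 0 with only the 10 arrays compared, 0 by both forms of the t-test and 0 to 1 without 1 array, and the 3 called lower were 1, 0 and 0, and 1 to 3. Deviations of same-numbered arrays correlated by -0.03 to 0.05 in 10 pairs, and 3 of 10 correlated best with their own number. These values cannot decide whether equal numbers mark the same rat, since samples of 1 rat before and after dosing need not correlate. With the replicate number as a block, 2 of the 57 genes were called lower in susceptible rats, and 0 higher and 1 lower in resistant rats. The causes of these moves were not tested. The number of arrays limits the precision, and the 95% intervals of the postdose changes of the main probe sets reached from 0.23 (Itgb3) to 0.49 (Ppbp) to either side.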
